A study of Gallus gallus with 36 samples.

Results

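Transcripts of voltage-gated and other ion channel genes were followed in the pineal gland and the retina of the chicken (Gallus gallus) across 6 circadian times. Members were the rows of the deposited estimated count table whose Ensembl gene name starts with KCN, CACN, CLCN, SCN, HCN or TRP of the C, M or V family, without KCNJ13, and whose mean was 1 CPM (counts scaled to each library's total) or more in either tissue. There were 177 such transcripts out of 23352, from 117 gene symbols, and 39 of these symbols had several member rows. Another 44 rows carried such a name but stayed under that level, 3 of them at 0 in every library. Members just above the level were KCNE4 at 1.01 CPM and KCNK13 at 1.04 CPM, and rows just below it were those of TRPV1 at 0.972 CPM and KCNS3 at 0.965 CPM. Of the members, 137 reached 1 CPM in both tissues, 14 in the pineal gland only and 26 in the retina only.

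Chicks from a commercial hatchery were kept in cycles of 12 h light and 12 h darkness for 9 days from their first day, and were moved to constant darkness on day 10. Tissue was then taken at circadian time (CT) 0, 4, 8, 12, 16 and 20, where CT0 is the start of the subjective day. Each tissue had 3 libraries per time, 36 libraries in all. A pineal library pooled 3 glands and a retina library held 1 retina. No group carried a treatment or an altered gene. Because the glands of a library were pooled, the spread between pineal libraries is not the spread between single birds.

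Voltage-gated channels open and close with the membrane potential. A pore subunit sets the ion and the voltage range, and accessory subunits set how many channels reach the membrane and how fast they open and close. Chicken pinealocytes are light-sensitive cells related to photoreceptors, hold a clock of their own and release melatonin at night, a process known to depend on calcium entry through L-type calcium channels. In the retina, photoreceptors and most interneurons signal with graded potentials, and calcium channels drive release at their ribbon synapses, while ganglion cells and some amacrine cells fire sodium spikes.

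Library totals ran from 6583163 to 9434608 estimated counts in pineal glands and from 4994388 to 8122277 in retinas. The members took 0.435% to 0.497% of the counts in pineal libraries and 0.749% to 0.775% in retina libraries. The tissue labels were set against marker lists: 6 pinealocyte markers summed to 9705 to 34516 CPM in pineal glands and 349.9 to 493 CPM in retinas, and the photoreceptor markers PDE6C and ARR3 each stayed at or under 55.4 CPM in pineal glands and at or above 461 CPM in retinas. A further photoreceptor marker, NR2E3, ran the other way, at 169.9 to 276 CPM in pineal glands and 5.51 to 109.9 CPM in retinas. Some pineal pools stood apart. Libraries 1 and 3 of CT12 and library 1 of CT20 held 994 to 1598 CPM of transthyretin (TTR), a choroid plexus marker, against 22939 CPM or more in the other 15, and library 2 of CT0 and libraries 1 of CT12 and CT20 held 21.5 to 37.1 CPM of GAD67, an enzyme of inhibitory neurons, against 2.37 to 8.45 CPM. Rows under the symbol HCN2 belong to 2 Ensembl genes, and the more counted of them is described in the table as a hippocampus abundant transcript, so it is counted below but not read as HCN2. TRPC4AP and KCNRG match the name pattern but are not channel subunits. Counts of a gene were divided among its transcripts by estimation, so the split between rows of 1 gene is less certain than their sum.

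Most channel transcripts were lower in the pineal gland than in the retina, while rows of KCNQ1, KCNQ5, KCNIP4 and TRPM3 were higher. Between the tissues 37 members were higher in the pineal gland and 120 were lower, with 19 not called and 1 not tested, by edgeR's quasi-likelihood test over all transcripts. Of all 16831 tested transcripts, 43.2% were higher in the pineal gland and 39.5% lower. The median ratio of mean CPM over the members was -1.26 on the log2 scale, pineal over retina, against 0.06 over all tested transcripts. All 18 pineal libraries lay above all 18 retina libraries for 20 members (22.4% of all tested transcripts did so), and all 18 retina libraries lay above all pineal ones for 72 members (19.3% of all tested). Members that reached 1 CPM in the retina only (26) or in the pineal gland only (14) entered through the tissue where they were higher. They are part of these counts and of the median. All tested transcripts were filtered by another rule, so the shares beside them only describe. In whole tissue, fewer cells of a type and less RNA per cell cannot be told apart.

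**Figure D1:**
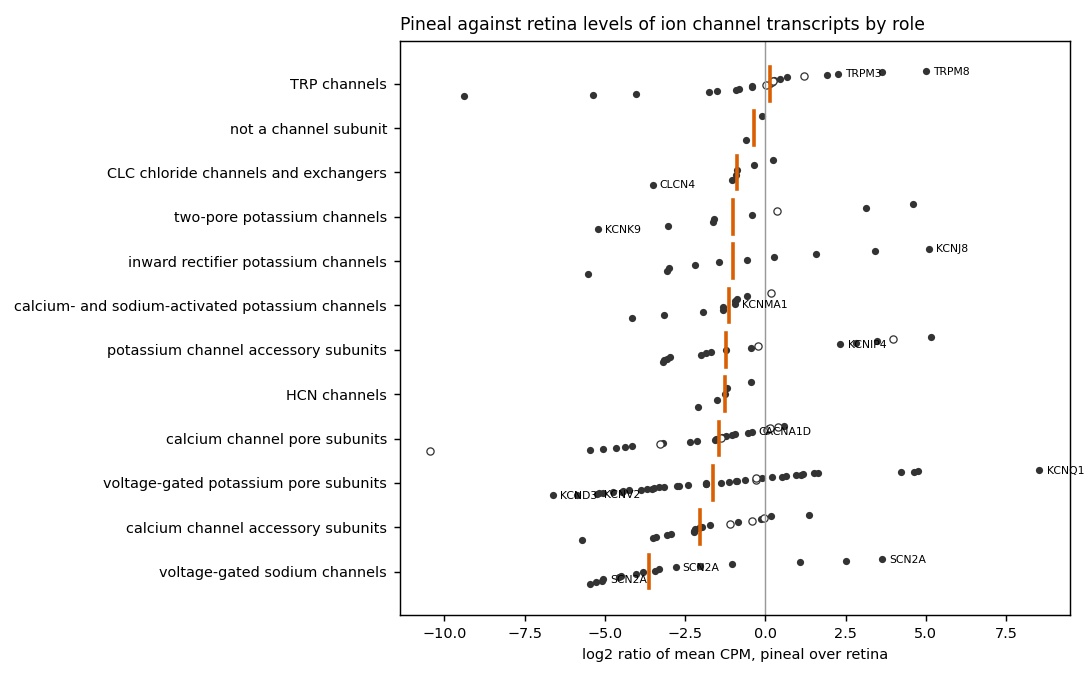
Log2 ratio of mean CPM, pineal over retina, for each member, in rows by role. Filled points passed the adjusted threshold of 0.05 between tissues, open points did not, and orange bars are the medians of each role, which run from -3.62 for sodium channels to 0.154 for TRP channels.

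The groups differed in how far apart the tissues were. Sodium channel members summed to 178 ± 50.3 CPM in pineal glands and 1011 ± 25.3 CPM in retinas (SD, n = 18 each). Calcium channel pore subunits summed to 685 ± 153 CPM in pineal glands and 999 ± 21.9 CPM in retinas. The pineal sums were thus more widely spread than the retinal ones. TRP channels were the only role with a larger pineal sum, 1329 ± 145 CPM in pineal glands against 979 ± 26.1 CPM in retinas, and the rows of TRPM3 held 53.2% ± 6.83 of these counts in pineal glands and 15.4% ± 1.01 in retinas. Without TRPM3 the TRP members summed to 613 ± 35.2 CPM in pineal glands and 828 ± 26.4 CPM in retinas.

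Many channel transcripts cycled in the pineal gland and few did in the retina. A 24 h curve was called in 39 of the 157 members tested in the pineal gland, where 21.1% of all 16070 tested transcripts were called, and in 8 of the 164 tested in the retina, where 6.29% were called. The shares of members were thus close to those of all transcripts. The 39 pineal members had a median peak-to-trough ratio of 2.26, against 1.43 over all rhythmic pineal transcripts. The members and all transcripts were not matched for level. Of the 39, 25 swung 2-fold or more, and the share of all rhythmic transcripts that did so was not counted. In the retina the median was 1.45, against 1.32 over all rhythmic transcripts, and both members with a swing of 2-fold or more were rows of CACNA2D4. Of the 39 pineal rhythmic members, 9 were higher in the pineal gland than in the retina and 28 lower, against 43.2% and 39.5% of all tested transcripts. Among all 176 members tested between tissues, 37 were higher and 120 lower, so most members were lower whether rhythmic or not. The 24 h curve differed between the tissues in 30 of 176 members, and in 12.1% of all tested transcripts.

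Fitted peaks in the pineal gland lay between CT11 and CT22 in 27 of the 39 members (69.2%) and between CT22 and CT7 in the other 12 (30.8%). Of all rhythmic pineal transcripts, 55.3% peaked in the first window, 37.6% in the second and 7.07% between CT7 and CT11. The bounds of these windows were not part of the plan and are of unequal length, so these shares only describe the peaks. All 7 rhythmic calcium channel pore rows and all 5 rhythmic calcium accessory rows were in the first window. CACNA1D and CACNA2D4 count here with several rows each. The peaks of CACNA1C, CACNG3 and CACNA2D3 lay close to the window's end at CT22, so their place in it depends on that bound. The nearest sampled time was CT0 in 4 members, CT4 in 7, CT8 in 1, CT12 in 10, CT16 in 10 and CT20 in 7. Over all rhythmic pineal transcripts the shares were 13.4% at CT0, 21.7% at CT4, 7.87% at CT8, 21.1% at CT12, 25.1% at CT16 and 10.9% at CT20.

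**Figure D2:**
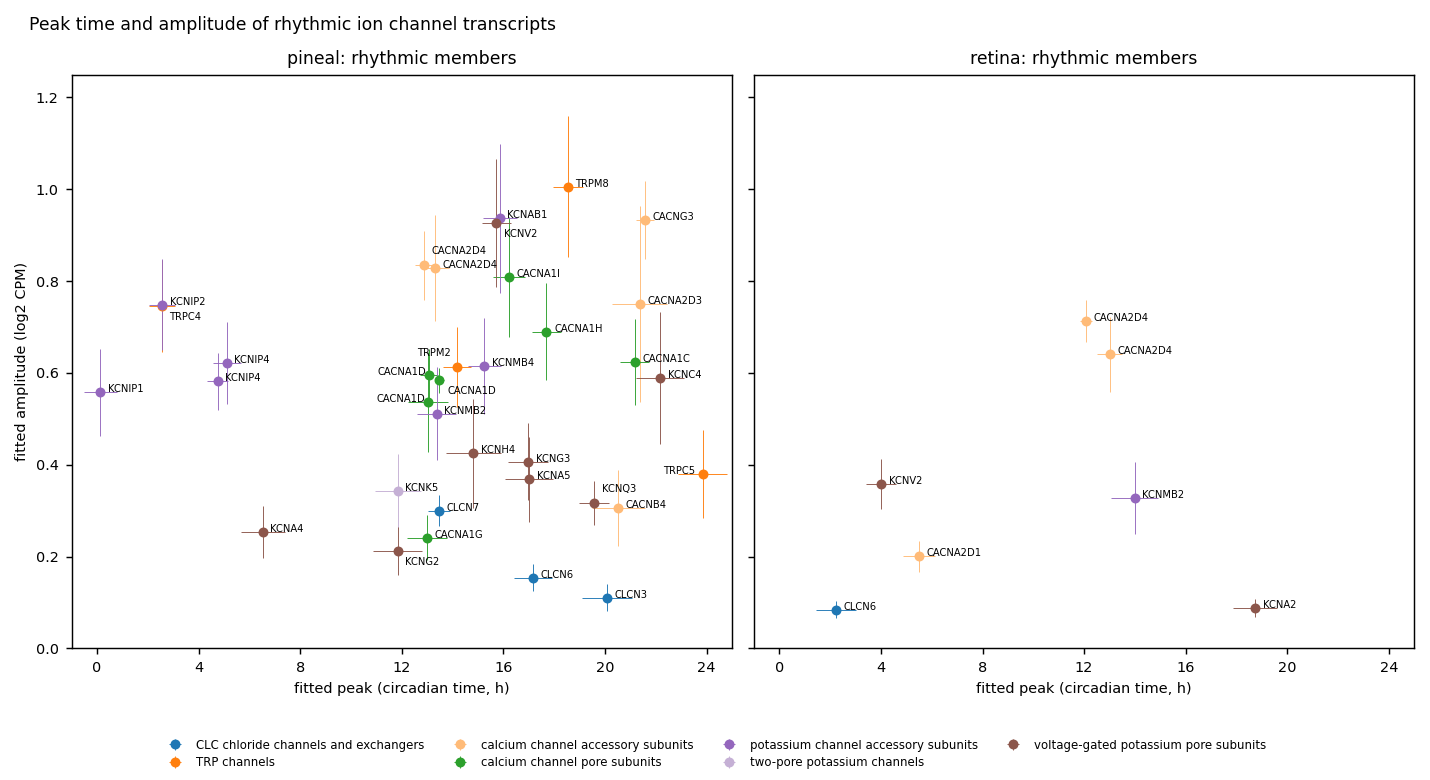
Fitted peak time (circadian time in h) against fitted amplitude (log2 CPM) of members called rhythmic in the pineal gland, left, and in the retina, right, with SE as bars and colours by role, for the genes reported here. Pineal amplitudes run from 0.11 to 1.01, and the 2 rows of CACNA2D4 are the highest in the retina.

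Of these 39 calls, 34 held without each of the 18 libraries in turn. Without the 4 libraries lowest in TTR or highest in GAD67, a choice made after seeing the data, 36 members were called, of which 33 were among the 39. The calls lost were CACNA1G, TRPC5, KCNK5, KCNG2, a row of CACNA2D3 and a row of CLCN3, with adjusted p-values of 0.0625, 0.161, 0.0585, 0.111, 0.141 and 0.174. With a separate mean for each of the 6 times in place of a curve, 37 were called and 33 were shared, without CACNA2D3, CLCN3, KCNG2, CACNB4, KCNA4 and KCNC4.

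Among L-type calcium channel pores, CACNA1D had a curve that was called in the pineal gland and not in the retina. The gene lies on chromosome 12, 7278757 to 7443142 of the deposited coordinates (build not given in the sources used here). Its most counted row averaged 163 ± 16 CPM at CT0, 225 ± 5.9 at CT4, 295 ± 30.6 at CT8, 392 ± 29.9 at CT12, 365 ± 27.5 at CT16 and 277 ± 30.5 at CT20 in pineal glands (SD, n = 3 each). In retinas it averaged 374 ± 9.99 CPM at CT0, 390.4 ± 2.68 at CT4, 393 ± 14 at CT8, 393 ± 6.51 at CT12, 389 ± 32.4 at CT16 and 371 ± 20.1 at CT20. The 3 pineal libraries of CT12 all lay above those of CT0, CT4 and CT8 in level, and at CT12 the pineal mean was close to the retinal one. The pineal amplitude was 0.60 ± 0.06 on the log2 scale (SE), with a peak at 13.1 ± 0.36 h and an adjusted p of 1.05e-06, and the retinal amplitude was 0.04 ± 0.02 with an adjusted p of 0.48. The curves differed between tissues with an adjusted p of 2.87e-08. The other 2 rows of the gene peaked in the pineal gland at 13.5 ± 0.18 h and 13 ± 0.77 h, with amplitudes of 0.58 ± 0.03 and 0.54 ± 0.11, and the difference between tissues passed for the first (3.17e-07) and not for the second (0.0955).

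CACNA1C, the L-type pore best known from heart muscle and brain, ran in another phase. Its main row averaged 21.1 ± 2.13 CPM at CT0, 13.2 ± 3.97 at CT4, 9.64 ± 2.05 at CT8, 12.1 ± 1.82 at CT12, 13.9 ± 1.98 at CT16 and 25.2 ± 3.35 at CT20 in pineal glands, against 26.9 to 43.8 CPM over the retina libraries. It was lowest at CT8 and highest at CT20, with a pineal amplitude of 0.62 ± 0.09, a peak at 21.2 ± 0.57 h and an adjusted p of 0.000123. The curve differed from the retinal one (adjusted p = 0.000846). Over all rows, L-type members summed to 433 ± 114 CPM in pineal glands and 578 ± 17.7 CPM in retinas.

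T-type channels, which open at low voltage and carry pacemaker currents in many neurons, also peaked in the pineal night. CACNA1I averaged 19.6 ± 1.75 CPM at CT0, 20.1 ± 3.29 at CT4, 30.0 ± 3.41 at CT8, 35.3 ± 9.14 at CT12, 57 ± 4.1 at CT16 and 62.4 ± 15.2 at CT20 in pineal glands. It stayed between 44.7 and 63.8 CPM over all retina libraries, so that pineal libraries of CT0 and CT4 lay below every retina library and those of CT16 and CT20 overlapped them. The pineal amplitude was 0.81 ± 0.13, with a peak at 16.2 ± 0.62 h (adjusted p = 0.000287), and the difference from the retina passed (adjusted p = 0.000282). Library 1 of CT20, which was high in GAD67, held the highest CACNA1I level of 79.9 CPM, and without that library the adjusted p of the curve was 0.000183. CACNA1H averaged 6.34 ± 2.17 CPM at CT4 and 17.8 ± 0.881 CPM at CT16 in pineal glands, with a peak at 17.7 ± 0.59 h (adjusted p = 0.000232). CACNA1G, at 167 ± 24.5 CPM in pineal glands and 156 ± 7.94 CPM in retinas, had a small pineal curve of 0.24 ± 0.05 with a peak at 13 ± 0.79 h (adjusted p = 0.00322). As given above, this call was lost without the 4 pineal libraries lowest in TTR or highest in GAD67. None of the 3 T-type genes was called in the retina.

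N-type and R-type pores, which serve release at conventional synapses, showed no rhythm called by edgeR, DESeq2 or limma (0 in both tissues, with 1 in pineal glands and 1 in retinas at an unadjusted p under 0.05 by edgeR). Of all tested transcripts, 21.1% were called rhythmic in pineal glands and 6.29% in retinas. Not every one of their 13 rows had counts enough for a test of rhythm in pineal glands. Between tissues 9 rows were lower in the pineal gland and 4 were not called, where 39.5% of all tested transcripts were lower. Some of these rows, such as ENSGALT00000039679 of CACNA1E, reached 1 CPM in the retina only. They entered through the tissue where they were higher, so this count was partly set by the rule. These 13 rows come from 2 genes and their split is estimated, so they are not separate observations. CACNA1B and CACNA1E members summed to 28.1 ± 22.1 CPM in pineal glands and 158 ± 11.1 CPM in retinas. The most counted CACNA1B row had a rounded count of 1 or more in 3 of 18 pineal libraries and held 44.6 times more CPM in retinas by the ratio of means (38 to 52.7, exact 95% interval of the summed counts, counting error only). Those pineal libraries were library 1 of CT20 with 12.8 CPM, library 1 of CT12 with 4.36 CPM and library 3 of CT16 with 2.99 CPM. The first 2 were also among the 3 highest in GAD67, and the part of inhibitory neurons in these values was not tested.

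**Figure D3:**
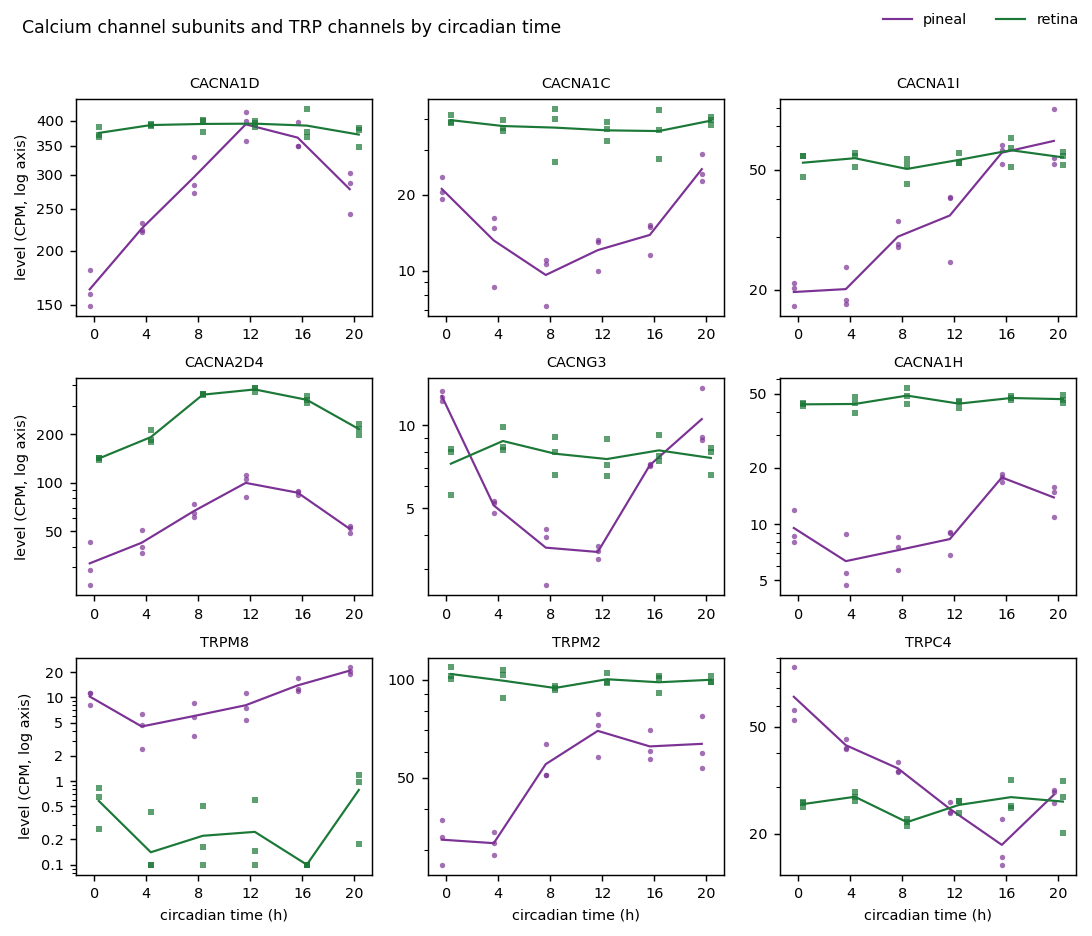
Level (CPM, log axis, values under 0.1 drawn at 0.1) of 9 members by circadian time. Points are single libraries, lines join the means of 3, and pineal glands (purple, first in the legend) and retinas (green) share each axis; CACNA2D4 is highest at CT12 and lowest at CT0 in both tissues.

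Among calcium channel accessory subunits, CACNA2D4 cycled in both tissues and in nearly the same phase. It encodes an alpha2delta subunit that photoreceptor synapses need in mice and people, and lies on chromosome 1, 63106639 to 63218413. Its main row averaged 31.6 ± 10.3 CPM at CT0, 42.4 ± 7.44 at CT4, 66.5 ± 6.59 at CT8, 99.6 ± 15.6 at CT12, 86.5 ± 2.59 at CT16 and 51.7 ± 2.74 at CT20 in pineal glands. In retinas it averaged 141 ± 2.18 CPM at CT0, 191 ± 18.9 at CT4, 351 ± 3.45 at CT8, 378 ± 12.8 at CT12, 326 ± 16.2 at CT16 and 215 ± 17.8 at CT20. Both tissues were highest at CT12 and lowest at CT0, and the 3 libraries of CT12 lay above the 3 of CT0 in each. The amplitude was 0.83 ± 0.07 in pineal glands and 0.71 ± 0.05 in retinas, with peaks at 12.9 ± 0.34 h and 12.1 ± 0.24 h and adjusted p-values of 4.36e-07 and 1.45e-08. The test of a difference between the curves did not pass (adjusted p = 0.259), which does not show that they were alike. Its second row gave pineal and retinal peaks at 13.3 ± 0.53 h and 13 ± 0.49 h. The level was lower in the pineal gland, with a log2 difference of -2.13 ± 0.05 (SE, adjusted p = 9.59e-24).

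CACNG3, a gamma subunit known in rodents mainly as a partner of AMPA receptors, had one of the steepest pineal curves. It averaged 12.8 ± 0.558 CPM at CT0, 5.12 ± 0.276 at CT4, 3.6 ± 0.85 at CT8, 3.47 ± 0.197 at CT12, 7.16 ± 0.0439 at CT16 and 10.5 ± 2.7 at CT20 in pineal glands, and ran from 5.56 to 9.82 CPM over the retina libraries. The pineal libraries of CT0 all lay above the highest retina library, and those of CT8 and CT12 all lay below the lowest. Its pineal amplitude was 0.93 ± 0.08 with a peak at 21.6 ± 0.35 h (adjusted p = 1.11e-06), and the curve differed from the retinal one (adjusted p = 4e-07). CACNA2D1 was the reverse case, called in the retina with an amplitude of 0.20 ± 0.03 and a peak at 5.49 ± 0.63 h (adjusted p = 0.00158), and not in the pineal gland (adjusted p = 0.0725). Its difference between tissues (adjusted p = 0.0317) was lost without library 2 of pineal CT0 (0.0508), library 3 of pineal CT4 (0.0523), library 2 of retina CT16 (0.0565) or library 1 of retina CT4 (0.0611), and without the 4 pineal libraries lowest in TTR or highest in GAD67 (0.123). The pineal calls of CACNA2D3 and CACNB4 were less firm. A row of CACNA2D3 peaked at 21.4 ± 1.1 h (adjusted p = 0.0411), and this was lost without each of 13 of the 18 libraries, with an adjusted p of up to 0.0906. CACNB4 peaked at 20.5 ± 1.0 h (adjusted p = 0.0253) and lost the call without library 1 of CT20 (0.0613) or library 3 of CT8 (0.0567). The main rows of the beta subunits CACNB2 and CACNB4 were lower in the pineal gland, a minor CACNB4 row was higher, and the 5 beta rows summed to 38 ± 5.66 CPM in pineal glands and 152 ± 6.69 CPM in retinas.

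The silent subunit KCNV2 forms no channel alone, and in mammalian photoreceptors it joins a pore subunit to shape the light response. It (chromosome Z, 27401335 to 27407377) averaged 0.913 ± 0.215 CPM at CT0, 1.11 ± 0.225 at CT4, 1.36 ± 0.552 at CT8, 2.46 ± 1.05 at CT12, 4.16 ± 0.459 at CT16 and 2.89 ± 0.863 at CT20 in pineal glands. In retinas it averaged 95.4 ± 19.8 CPM at CT0, 96.7 ± 10.3 at CT4, 95 ± 11.5 at CT8, 71.1 ± 4.1 at CT12, 62 ± 6.25 at CT16 and 70.8 ± 4.84 at CT20. The pineal libraries of CT16 were the highest and those of CT0 among the lowest, while in retinas CT16 had the lowest mean. The pineal amplitude was 0.93 ± 0.14 with a peak at 15.7 ± 0.58 h (adjusted p = 0.000314), and the retinal amplitude was 0.36 ± 0.06 with a peak at 4.01 ± 0.59 h (adjusted p = 0.000643). The curves thus ran about opposite in phase and differed with an adjusted p of 2.27e-08, the smallest among all members. Pineal levels were low, with 302 counts over 18 libraries, and the retina held 38.1 times more by the ratio of means (33.4 to 42.2, exact 95% interval of the counts).

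Other silent subunits, KCNG3 and KCNG2, were higher in the pineal gland: KCNG3 at 52.1 ± 13.9 CPM in pineal glands and 16.5 ± 2.28 CPM in retinas, and KCNG2 at 45.1 ± 6.62 CPM in pineal glands and 15.9 ± 2.11 CPM in retinas. KCNG3 averaged 41.5 ± 2.72 CPM at CT0, 36.5 ± 3.19 at CT4, 49.9 ± 2.79 at CT8, 45.9 ± 4.99 at CT12, 64.8 ± 5.12 at CT16 and 74.1 ± 3.02 at CT20 in pineal glands, with a peak at 17 ± 0.78 h (adjusted p = 0.00232). Its difference in rhythm (0.0271) was lost without library 1 of pineal CT4 (0.0581) or library 2 of retina CT4 (0.0543). The KCNG2 curve (adjusted p = 0.0176) was lost without library 2 of CT0 (0.0508) or library 3 of CT12 (0.053).

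**Figure D4:**
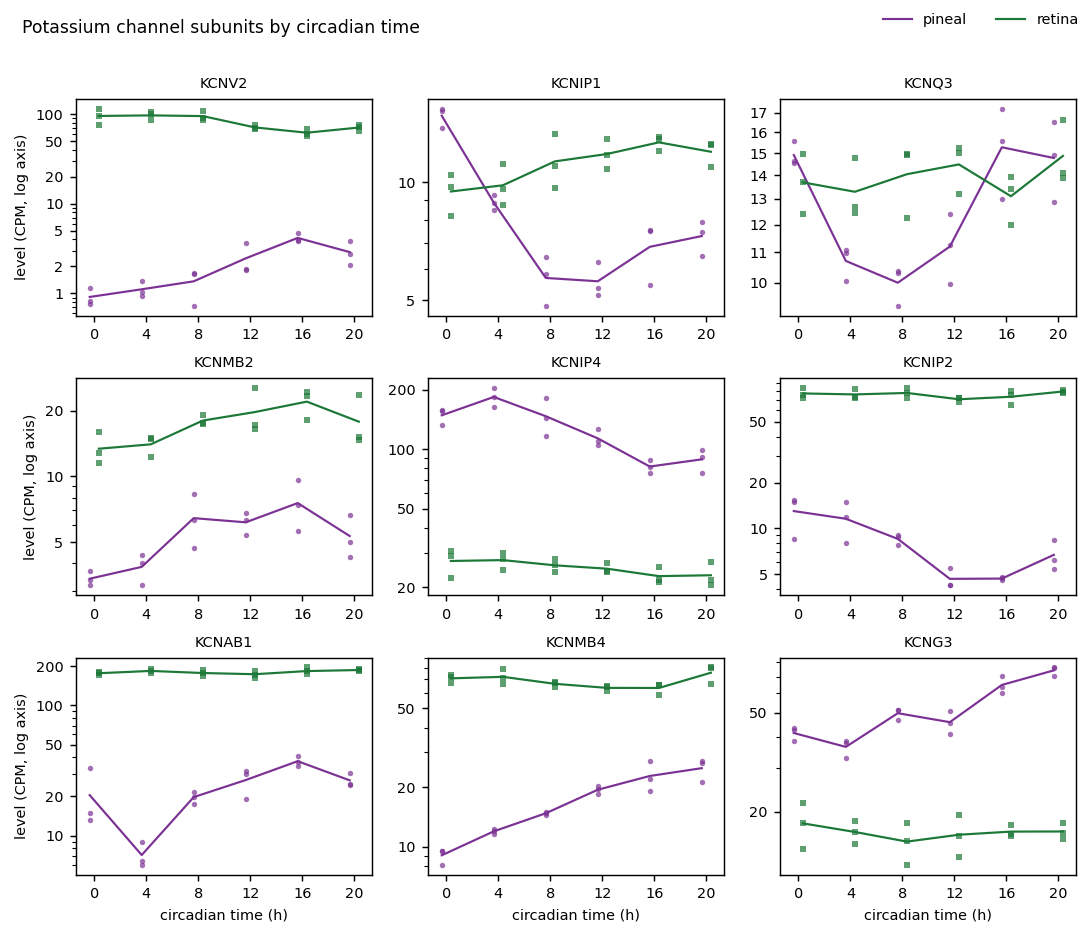
Level (CPM, log axis) of 9 potassium channel subunits by circadian time. Points are single libraries, lines join the means of 3, pineal glands in purple and retinas in green; KCNV2 is highest at CT16 in pineal glands and lowest at CT16 in retinas.

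KCNQ potassium channels open slowly at voltages near rest and damp excitability, and rows of KCNQ1 and KCNQ5 were higher in the pineal gland. KCNQ1, known from heart and epithelia, lies on chromosome 5, 14329939 to 14649812 and had a lowest, median and highest level of 54.3, 80.1 and 96.6 CPM in pineal glands, against 0.000743, 0.00178 and 1.61 CPM in retinas. Only 3 of 18 retina libraries held a rounded count of 1 or more, and the ratio of means was 372 (247 to 554, exact 95% interval of the counts), the largest pineal-over-retina ratio of any member. Its second row, with the same start and end, was low in both tissues and ran the other way, at 0.283 ± 0.634 CPM in pineal glands and 1.49 ± 0.969 CPM in retinas, so the size of the ratio rests on the estimated split. KCNQ5 had a lowest, median and highest level of 16.2, 20.7 and 25.1 CPM in pineal glands, against 0.355, 1.22 and 1.8 CPM in retinas. KCNQ1 and KCNQ5 were not called rhythmic (adjusted p = 0.135 and 0.2). KCNQ3, a subunit of the M current of neurons, peaked at 19.6 ± 0.58 h (adjusted p = 0.000701), and its tissue difference was small, at 12.8 ± 2.52 CPM in pineal glands and 13.9 ± 1.27 CPM in retinas. That difference was called from counts (log2 -0.16 ± 0.05, adjusted p = 0.00283) and changed sign in FPKM (0.00993 with a pseudocount of 0.1, adjusted p = 0.867).

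Fast potassium channels of neurons had smaller sums in the pineal gland. KCNC members, which let neurons fire at high rates, summed to 30.5 ± 8.38 CPM in pineal glands and 243 ± 11.7 CPM in retinas. KCNA members, found along axons, summed to 55.5 ± 11.6 CPM in pineal glands and 209 ± 10.5 CPM in retinas. KCND members, the A-type pores, summed to 2.39 ± 2.81 CPM in pineal glands and 113 ± 6.41 CPM in retinas, and KCND3 had a lowest, median and highest level of 1.52e-05, 0.43 and 5.94 CPM in pineal glands, against 68.2, 78.4 and 89.5 CPM in retinas. The auxiliary KCNIP proteins, which bind KCND pores, had a larger mean sum in the pineal gland, with overlapping ranges: KCNIP rows summed to 221 ± 67.1 CPM in pineal glands and 128 ± 6.45 CPM in retinas. The 3 member rows of KCNIP4 (chromosome 4, 77570712 to 77664520 for the most counted) were each higher in the pineal gland.

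Rows of all 3 KCNIP genes were called rhythmic in the pineal gland, with peaks around the subjective morning. The most counted KCNIP4 row averaged 149 ± 14.4 CPM at CT0, 184 ± 20.5 at CT4, 147 ± 32.4 at CT8, 114 ± 11.1 at CT12, 81.8 ± 6.12 at CT16 and 88.9 ± 11.6 at CT20 in pineal glands. In retinas it stayed between 20.5 and 30.7 CPM, below every pineal library. The peak was at 4.75 ± 0.40 h with an amplitude of 0.58 ± 0.06 (adjusted p = 3.21e-06), and the curve differed from the retinal one (adjusted p = 0.000561). KCNIP2, whose retinal level of 222 ± 15.6 FPKM was the highest of any member per transcript length, was at 27.5 ± 13.1 FPKM in pineal glands. Its pineal counts averaged 13 ± 3.87 CPM at CT0, 11.6 ± 3.41 at CT4, 8.54 ± 0.702 at CT8, 4.67 ± 0.736 at CT12, 4.69 ± 0.105 at CT16 and 6.71 ± 1.54 at CT20, with a peak at 2.56 ± 0.50 h (adjusted p = 4.12e-05). The retinal amplitude was 0.06 ± 0.03 and was not called. KCNIP1 averaged 14.8 ± 0.921 CPM at CT0 and 5.59 ± 0.592 CPM at CT12 in pineal glands, with a peak at 0.128 ± 0.65 h (adjusted p = 0.000491).

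The other accessory potassium subunits called in the pineal gland, KCNAB1, KCNMB2 and KCNMB4, peaked from evening to night. KCNAB1, a beta subunit of KCNA channels, averaged 20.5 ± 11 CPM at CT0, 7.12 ± 1.61 at CT4, 19.8 ± 2.08 at CT8, 26.7 ± 6.59 at CT12, 37.3 ± 3.06 at CT16 and 26.6 ± 3.02 at CT20 in pineal glands, against 163 to 195 CPM over the retina libraries. The libraries of CT4 were the lowest and those of CT16 the highest, with an amplitude of 0.94 ± 0.16 and a peak at 15.9 ± 0.66 h (adjusted p = 0.00276). KCNMB4 and KCNMB2 are beta subunits of the BK channel, which opens with both calcium and depolarisation. KCNMB4 averaged 9.07 ± 0.813 CPM at CT0, 12 ± 0.386 at CT4, 14.8 ± 0.288 at CT8, 19.4 ± 0.945 at CT12, 22.8 ± 4.04 at CT16 and 25 ± 3.33 at CT20 in pineal glands, and peaked at 15.3 ± 0.65 h (adjusted p = 0.000662). Its curve differed from the retinal one (adjusted p = 4.39e-05). KCNMB2 was called in both tissues, with peaks at 13.4 ± 0.76 h in pineal glands and 14 ± 0.93 h in retinas (adjusted p = 0.00489 and 0.035), but the retinal call was lost without each of 8 of the 18 retina libraries, with an adjusted p of up to 0.0894. The pore gene KCNMA1 was not called in either tissue. Its main row was at 62.3 ± 6.46 CPM in pineal glands and 121 ± 5.93 CPM in retinas, and both of its well-counted rows were lower in the pineal gland. By edgeR 39.5% of all tested transcripts were lower in the pineal gland, as were 9 of the 10 calcium- and sodium-activated members. Of these 10 members, 8 reached 1 CPM in pineal glands and 10 in retinas, so some entered through the retina only. No calcium- or sodium-activated member was called rhythmic among the 8 tested in pineal glands and the 10 tested in retinas. Of all tested transcripts, 21.1% and 6.29% were called there. At an unadjusted p under 0.05 there were 2 in pineal glands and 0 in retinas, and DESeq2 and limma called 0 in both.

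Inward rectifiers and tandem-pore channels set the resting potential. Of 8 tandem-pore members, 6 were tested for rhythm in each tissue. EdgeR called 1 of these in pineal glands and 0 in retinas, against 21.1% and 6.29% of all tested transcripts. Of 10 inward rectifier members, 9 were tested for rhythm in pineal glands and 7 in retinas. EdgeR called none of them, against 21.1% and 6.29% of all tested transcripts, with 6 in pineal glands and 0 in retinas at an unadjusted p under 0.05. In pineal glands DESeq2 called 3 and limma on log2 FPKM called 1 or 2 by pseudocount, so this count of 0 depended on the tool. The share of all tested transcripts at that unadjusted p was not counted. Between tissues 4 inward rectifier members were higher in the pineal gland and 6 lower, against 43.2% and 39.5% of all tested transcripts. Of the 10, 9 reached 1 CPM in pineal glands and 7 in retinas. Some, KCNJ15 and KCNJ16 among them, thus entered through the tissue where they were higher, so these counts were partly set by the rule. KCNJ8, the pore of an ATP-sensitive channel of vascular mural cells, had a lowest, median and highest level of 21.2, 27.1 and 49.1 CPM in pineal glands, against 0.488, 0.862 and 1.28 CPM in retinas. KCNJ16 was at 5.04 ± 1.4 CPM in pineal glands and 0.471 ± 0.317 CPM in retinas, and KCNJ15 at 2.25 ± 0.507 CPM in pineal glands and 0.747 ± 0.567 CPM in retinas. KCNJ12 and KCNJ3 were lower in the pineal gland, at 12 ± 2.14 CPM in pineal glands and 55.6 ± 4.2 CPM in retinas for KCNJ12 and 3.32 ± 2.89 CPM in pineal glands and 27.8 ± 2.68 CPM in retinas for KCNJ3. Of the tandem-pore channels, KCNK5, known from epithelia, had a lowest, median and highest level of 9.69, 18.1 and 25.5 CPM in pineal glands, against 1.35, 2 and 3.38 CPM in retinas. It averaged 12.4 ± 2.72 CPM at CT0 and 22.7 ± 2.44 CPM at CT12 in pineal glands (adjusted p of the curve = 0.0158). KCNK9 lay at 0.217 ± 0.454 CPM in pineal glands and 8.11 ± 1.58 CPM in retinas. The 5 endothelial markers summed to 461 to 625 CPM in pineal glands and 288 to 346 CPM in retinas, but did not move together. VWF held 157 to 236 CPM in pineal glands and 0.0103 to 19.2 CPM in retinas. CDH5 held 87.2 to 111 CPM in pineal glands and 0 to 12 CPM in retinas, and TEK 35.6 to 56.7 CPM in pineal glands and 0.404 to 2.37 CPM in retinas. PECAM1 held 52.2 to 169 CPM in pineal glands and 5.89 to 39.2 CPM in retinas, while KDR held 79.7 to 95.8 CPM in pineal glands and 272 to 318 CPM in retinas. KCNJ8 was thus higher in the pineal gland, as were 4 of the 5 markers, while KDR was lower. The marker lists held none for mural cells, and the part of vascular cells in the KCNJ8 difference was not tested.

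HCN channels, opened by hyperpolarisation and tuned by cyclic nucleotides, carry pacemaker currents in heart and brain. HCN4, at 1.18 ± 0.61 CPM in pineal glands and 5.04 ± 1.42 CPM in retinas, was lower in the pineal gland (log2 -2.15 ± 0.18, adjusted p = 8.88e-12).

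TRP channels had 8 members higher and 9 lower in the pineal gland, of 21 tested. Of all tested transcripts, 43.2% were higher and 39.5% lower, so the shares of members were close to these. In each tissue 18 of the 21 reached 1 CPM, so some entered through the tissue where they were higher. TRPM3, a channel opened by heat and steroids (chromosome Z, 34755749 to 35025244), was the highest member per length in the pineal gland, at 141 ± 31.9 FPKM. It had a lowest, median and highest level of 376, 704 and 879 CPM in pineal glands, against 128, 142 and 159 CPM in retinas. The 3 pineal libraries lowest in TTR held 376 to 418 CPM of TRPM3 and the other 15 held 646 to 879 CPM. The choroid plexus markers FOLR1, CLIC6 and SLC4A5 were also lowest in these 3 libraries. AQP1, at 77.8 to 102 CPM, and KCNE2, at 0.884 to 1.74 CPM, stayed within the range of the other 15. TRPM3 thus moved with TTR and part of the choroid plexus list, and the part of that tissue in its level was not tested. Even those 3 libraries lay above every retina library. TRPM3 was not called rhythmic (adjusted p = 0.459). TRPM1, the transduction channel of ON bipolar cells, was at 89.9 ± 11.2 CPM in pineal glands and 302 ± 24.4 CPM in retinas, a log2 difference of -1.77 ± 0.04 (adjusted p = 9.25e-25), and was not called rhythmic. TRPM8, the cold and menthol channel, averaged 10.2 ± 1.81 CPM at CT0, 4.49 ± 2.01 at CT4, 5.98 ± 2.55 at CT8, 8.05 ± 3.03 at CT12, 13.9 ± 2.84 at CT16 and 20.9 ± 1.84 at CT20 in pineal glands, with an amplitude of 1.01 ± 0.15 and a peak at 18.5 ± 0.59 h (adjusted p = 0.000206). In retinas only 11 of 18 libraries held a rounded count of 1 or more of its main row, the highest at 1.18 CPM.

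TRPM2, a channel opened by ADP-ribose, averaged 32.3 ± 4.99 CPM at CT0, 31.5 ± 2.56 at CT4, 55 ± 7.09 at CT8, 69.6 ± 10.5 at CT12, 62.3 ± 6.66 at CT16 and 63.5 ± 12.4 at CT20 in pineal glands. It was lowest at CT0 and CT4, peaked at 14.2 ± 0.54 h (adjusted p = 0.000176) and differed in its curve from the retina (adjusted p = 2.15e-05), where it held 88 to 109 CPM. TRPM2 was high in the low-TTR libraries too, with 72.5 to 78.3 CPM there and at most 69.8 CPM in the other 15. Its curve remained called without them. TRPC4 averaged 64.8 ± 16.2 CPM at CT0, 42.8 ± 2.04 at CT4, 35.1 ± 1.66 at CT8, 24.8 ± 1.35 at CT12, 18.2 ± 4.02 at CT16 and 28 ± 1.6 at CT20 in pineal glands, with a peak at 2.56 ± 0.51 h (adjusted p = 6.67e-05), so it was above its retinal range of 20.1 to 31.8 CPM at CT0, CT4 and CT8 and within or below it from CT12 on. TRPC5, its close relative, was highest at CT0 with 18.7 ± 2.38 CPM in pineal glands and peaked at 23.8 ± 0.97 h (adjusted p = 0.0114). This call was lost without the 3 libraries lowest in TTR (0.0598) and without the 3 highest in GAD67 (0.0692). TRPC members summed to 278 ± 28.4 CPM in pineal glands and 279 ± 10.2 CPM in retinas.

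Sodium channels carried no rhythm called by edgeR in either tissue, with 13 members tested in pineal glands and 15 in retinas. Of all tested transcripts, 21.1% were called in pineal glands and 6.29% in retinas. At an unadjusted p under 0.05 there were 1 in pineal glands and 0 in retinas. DESeq2 called 1 in pineal glands and limma 0. Pore subunits summed to 164 ± 47.5 CPM in pineal glands and 887 ± 27.1 CPM in retinas, and the beta subunits SCN2B, SCN3B and SCN4B to 13.7 ± 4.54 CPM in pineal glands and 124 ± 11 CPM in retinas. SCN8A was lower in the pineal gland, at 97 ± 15.5 CPM in pineal glands and 198 ± 19.6 CPM in retinas for its main row. SCN1A, known from inhibitory neurons, was lower in the pineal gland in each of its rows, with its main row at 3.32 ± 3.45 CPM in pineal glands and 78.7 ± 5.92 CPM in retinas. Higher in the pineal gland were SCN4B, SCN9A and a row of SCN2A. The highest pineal sum of sodium channels, 351 CPM, was in library 1 of CT20, the one highest in GAD67, and the median was 161 CPM.

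SCN2A (chromosome 7, 21296535 to 21351284) had rows that ran in opposite directions. Row ENSGALT00000017933 had a lowest, median and highest level of 8.03, 22.7 and 40.8 CPM in pineal glands, against 0, 0 and 7.9 CPM in retinas. Row ENSGALT00000017931, with the same start and end, had a lowest, median and highest level of 0, 0.00238 and 63.9 CPM in pineal glands, against 168, 201 and 244 CPM in retinas, and its only pineal values above 5 CPM were 63.9 CPM in library 1 of CT20 and 28.9 CPM in library 1 of CT12, both high in GAD67. Of the gene's counts the first row held 57.3% ± 18.4 in pineal glands and 0.573% ± 0.893 in retinas. The second held 7.9% ± 15.4 in pineal glands and 64.4% ± 3.64 in retinas. Differences passed the test in both rows, at log2 4.60 ± 0.58 and -6.30 ± 0.48 (adjusted p = 4.85e-08 and 1.2e-12). Summed over its rows the gene was lower in the pineal gland, at 44.4 ± 21.4 CPM in pineal glands and 315 ± 19.2 CPM in retinas, a log2 difference of -2.90. The split rests on the authors' estimation, which cannot be checked from these tables.

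**Figure D5:**
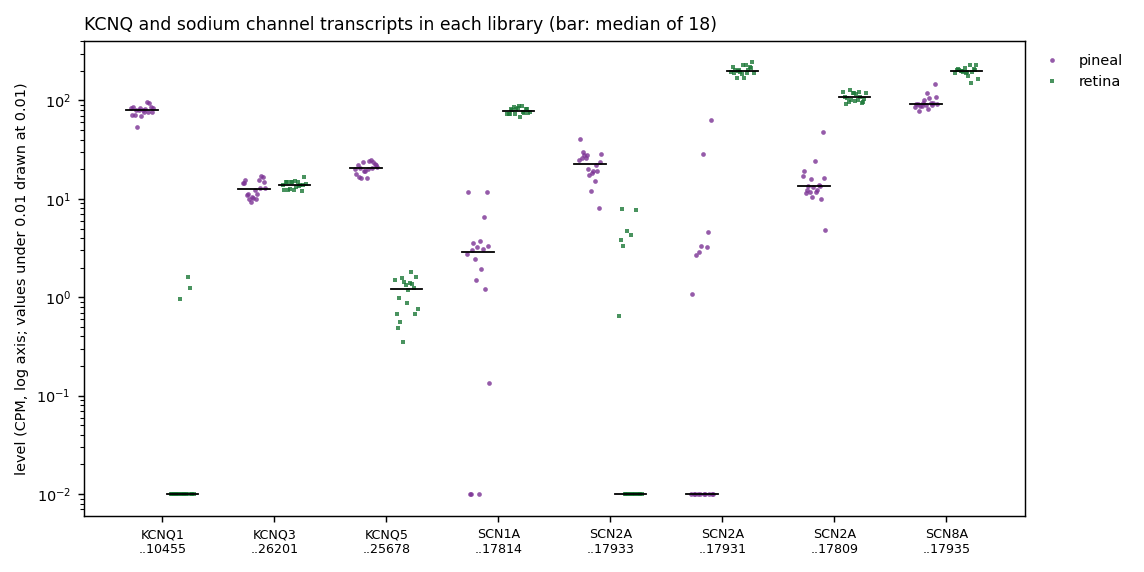
Level of KCNQ and sodium channel rows in every library (CPM, log axis, values under 0.01 drawn at 0.01), pineal glands as purple circles left of retinas as green squares, bars at the median of 18. KCNQ1, KCNQ5 and the first of the SCN2A rows described above lie higher in pineal glands, and the other SCN2A rows, SCN1A and SCN8A lie higher in retinas.

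CLC members, which are mostly proton exchangers of endosomes and lysosomes, were lower in the pineal gland except CLCN7. CLCN7, the lysosomal member, was at 98.1 ± 15.3 CPM in pineal glands and 82.4 ± 4.55 CPM in retinas (log2 0.21 ± 0.03, adjusted p = 5.52e-08). It averaged 78 ± 9.97 CPM at CT0, 86.8 ± 0.69 at CT4, 96.9 ± 4.68 at CT8, 113 ± 6.92 at CT12, 119 ± 3.19 at CT16 and 95 ± 4.53 at CT20 in pineal glands, with a peak at 13.5 ± 0.43 h (adjusted p = 8.28e-06), and differed from its retinal curve (adjusted p = 9.35e-07). CLCN6 was called in both tissues at small amplitudes, 0.15 ± 0.03 in pineal glands with a peak at 17.2 ± 0.74 h and 0.08 ± 0.02 in retinas with a peak at 2.23 ± 0.79 h. The retinal call (adjusted p = 0.0303) was lost without each of 6 of the 18 retina libraries, with an adjusted p of up to 0.0756. CLCN3 had a pineal curve of 0.11 ± 0.03 (adjusted p = 0.0265), which was lost without library 1 of CT20 (0.0751). CLCN4 was the member of the group with the widest gap, at 16 ± 3.76 CPM in pineal glands and 184 ± 6.61 CPM in retinas.

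In the retina, the count of 8 rhythmic members was small and less stable than the pineal one. It fell to 5 without library 2 of CT0, library 1 of CT4 or library 3 of CT16, and to 3 with a separate mean for each time. Those 3 were the 2 rows of CACNA2D4 and KCNV2. KCNA2 (adjusted p = 0.0443) lost its call without each of 16 of the 18 libraries, with an adjusted p of up to 0.117.

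Channel genes outside the name pattern were counted too. Of 52 listed genes of other families (anoctamins, ryanodine and IP3 receptors, TRIC, LRRC8, NALCN and others) 43 were in the table. A pineal rhythm was called in 14 of 39 tested and a retinal one in 3 of 37, against 21.1% and 6.29% of all tested transcripts. The list was chosen with earlier results of these data known, so its shares only describe it. Between tissues 23 of 40 were higher in the pineal gland and 14 lower, against 43.2% and 39.5% of all tested. TMEM38A, a cation channel of the endoplasmic reticulum, was at 211 CPM in pineal glands and 207 CPM in retinas. The edgeR test averages log-scale means of the 6 times, so it need not follow these arithmetic means. By this test TMEM38A was lower in the pineal gland, opposite to the arithmetic means (log2 -0.161, adjusted p = 2.66e-05). It had amplitudes of 1.06 ± 0.03 and 0.31 ± 0.03 with peaks at 12.9 h and 11.4 h (adjusted p = 2.64e-12 and 3.38e-06). ANO4 had a pineal amplitude of 1.36 ± 0.14 with a peak at 14.5 h (adjusted p = 8.63e-06). UNC80, which holds the leak channel NALCN at the membrane, had one of 0.50 ± 0.06 with a peak at 19.4 h (adjusted p = 1.21e-05), and NALCN itself was not called (adjusted p = 0.0535). ORAI2, a store-operated calcium channel, was called in the retina with an amplitude of 0.42 ± 0.03 and a peak at 19 h (adjusted p = 4.28e-07). The IP3 receptor ITPR3 averaged 105 CPM in pineal glands and 6.75 CPM in retinas. RYR2, a ryanodine receptor, averaged 13.6 CPM in pineal glands and 295 CPM in retinas.

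Proteins that bind channels were counted likewise, from a list with the same limit. Of 22 listed, 16 were in the table, 5 were higher in the pineal gland and 11 lower, against 43.2% and 39.5% of all tested transcripts. A rhythm was called in 3 of 16 tested in pineal glands and 1 of 15 in retinas, against 21.1% and 6.29% of all tested. CABP1, a calmodulin-like regulator of calcium channels, averaged 0.998 CPM in pineal glands and 289 CPM in retinas. ANK3, which anchors sodium channels, averaged 37.7 CPM in pineal glands and 491 CPM in retinas. STAC, an adaptor of L-type channels, averaged 24.7 CPM in pineal glands and 11.8 CPM in retinas, and peaked in the pineal gland at 23.7 h (adjusted p = 0.000186). The kinase anchors AKAP5 and AKAP9 peaked there at 16.8 h and 13.7 h (adjusted p = 0.000541 and 0.000748).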

How the data were processed

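RNA-seq of 18 pineal pools and 18 retinas was used. The authors deposited estimated counts and FPKM values per Ensembl transcript, per the file headers. The tools listed in the submitters' processing notes are Trimmomatic, TopHat and Cufflinks, without versions; for the genome build, the sources used here give none. For testing, these estimates were rounded to integers and analysed with edgeR 4.0.16 (TMM scaling, low counts filtered by group, quasi-likelihood test, Benjamini-Hochberg adjustment over all tested transcripts, threshold 0.05). Rhythm was a 24 h cosine and sine curve within each tissue, its difference an interaction over both tissues, and the tissue contrast pineal minus retina averaged over the 6 times. Amplitude (mean to peak) and peak time come from least squares on log2 CPM with a prior count of 2, and peaks are in h of circadian time. Levels are CPM of the unrounded estimates, which weigh long transcripts more, also in sums over rows and in shares of such sums, and statements on which member was highest per length are in FPKM. The script was tested on simulated data. Nothing in the labels says whether libraries of a group are separate cohorts, so p-values measure the spread between these libraries. Genes were named by rule: the 12 members of largest called amplitude in each tissue, the 10 with the smallest p of a difference in rhythm, the 8 with the largest separated fold in each direction, the 2 most counted of each role in each tissue, and channels known from photoreceptors or pinealocytes; other genes were named after their values were seen. Members and lists were chosen with earlier results of these data known. Alternatives were DESeq2 1.42.0, limma 3.58.1 on log2 FPKM, other filters and scalings, a replicate block and leaving out libraries. Exact 95% intervals cover counting error only. Some genes of the set are counted among the members but are not reported here by name.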

Additional observations from a re-analysis of the deposited data

Results flagged for a closer look

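The 24 h curve differed between pineal glands and retinas, by the edgeR interaction test over all tested transcripts, in 30 members, and the values of those reported by name follow. Groups of 3 libraries were too small for a test of single outlying libraries. Among calcium channel subunits the adjusted p-values were 2.87e-08 and 3.17e-07 for 2 rows of CACNA1D, 4e-07 for CACNG3, 5.22e-05 for CACNA1H, 0.000282 for CACNA1I, 0.000846 for CACNA1C, 0.0106 for CACNA1G, 0.0297 for CACNG4 and 0.0317 for CACNA2D1. Among potassium channel pores and silent subunits they were 2.27e-08 for KCNV2, 0.00316 and 0.0187 for 2 rows of KCNA5, 0.00939 for KCNQ3, 0.0123 for KCNG2, 0.022 for KCNH8 and 0.0271 for KCNG3. Potassium accessory subunits gave 5.81e-06 for KCNIP2, 2.69e-05 for KCNIP1, 4.39e-05 for KCNMB4, 0.00046 for KCNAB1 and 0.000561 for KCNIP4. TRP channels gave 2.15e-05 for TRPM2, 6.27e-05 for TRPC4 and 0.00368 for TRPC5, and CLC members gave 9.35e-07 for CLCN7 and 0.000123 for CLCN6. CACNG4 was called rhythmic in neither tissue. Its row listed here averaged 5.82 CPM at CT0 and 0.00127 CPM at CT8 in pineal glands. The gene's other member row was lowest at CT0, at 0.637 CPM. The part of the estimated split in this difference was not tested. KCNH8 held 53.8 to 56.3 CPM in the 3 pineal libraries lowest in TTR and 42.2 to 52.7 CPM in the other 15.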

How the results depend on the processing

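The 39 pineal rhythmic members ran from 36 to 42 when each pineal library was left out in turn, the 8 retinal ones from 5 to 8, the 30 differences in rhythm from 29 to 38, the 37 higher members from 37 to 39 and the 120 lower ones from 118 to 121. The retinal count moved to 5 with both tissues in 1 fit and to 3 with time as 6 levels; the cause was not tested. The pineal count was 54 with both tissues in 1 fit, 53 by DESeq2, 45 with counts summed per gene, 44 and 47 by limma with pseudocounts of 0.1 and 1, and 37 with time as 6 levels or with no filter. Counts summed per gene, which merge the rows of a gene, gave 29 higher and 82 lower genes. These counts and the 45 are of 118 member genes, not of 177 rows. The shares of all transcripts called under these other settings were not counted. Whether the members stayed close to such shares is thus not known. DESeq2 gave 10 retinal members and 42 differences in rhythm. With a replicate block the counts were 40, 6, 32, 37 and 119. Deviations of pineal libraries with the same number had a median correlation of 0.0017, against 0.00158 for other numbers, so the numbers were not taken as pairs. The highest same-number correlation in pineal glands was 0.256. Libraries 1 of CT12 and CT20, which share a number, were both low in TTR and high in GAD67. Directions reversed in 3 cases: KCNQ3, pineal minus retina, was 0.00993 (adjusted p = 0.867) and 0.0106 (adjusted p = 0.83) by limma on FPKM with pseudocounts of 0.1 and 1, and SCN2A row ENSGALT00000017933 was -2.9 (adjusted p = 4.27e-21) with counts summed per gene, which merges its rows. The share of CACNA1B's counts in its row ENSGALT00000013780 ranged from 0 to 41.1% between pineal libraries and from 12.8 to 59.5% between retinal ones, and the cause was not tested.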
